A study of Mus musculus with 9 samples.

Results

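The 10 genes described here belong to the pathway of the transcription factor NRF2, which answers oxidative stress. They were Nfe2l2, which encodes NRF2, its inhibitor Keap1, and the target genes Nqo1, Hmox1, Gclc, Gclm, Srxn1, Txnrd1, Slc7a11 and Gsr. They were picked by gene name, with no cutoff on a measured value, though earlier results of these data were known, and each matched 1 of the 56748 genes of the deposited table. All 10 were among the 17338 genes tested. The RNA came from primary airway basal stem cells, taken from the trachea of wild-type (WT) mice and grown at an air-liquid interface, where cells on a porous support are fed from below and meet air above. There were 3 libraries on each of days 1, 3 and 5 of that culture, which the submitters assign to proliferating basal cells, a stratifying layer and luminal fate choice. By the labels, all 9 libraries shared genotype and culture, and no group received another agent. Whether the days drew on the same animals is not given, and RNA of sex-linked genes differed between day 1 and later days (below). The labels give no age, sex or number of animals and do not say whether replicates were separate cultures, so the p-values cover the spread among these libraries alone, which may be technical.

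NRF2 is made continuously and, in resting cells, destroyed continuously, because KEAP1 presents it to a CUL3 ubiquitin ligase. Oxidants and electrophiles modify cysteines of KEAP1; NRF2 then enters the nucleus, pairs with a small MAF protein and binds antioxidant response elements near genes for glutathione synthesis, thiol reduction, quinone detoxification and heme breakdown. BACH1 is a repressor that competes for the same elements, most clearly at Hmox1. The airway lining meets inhaled oxidants directly, and NRF2 protects its cells from them. NRF2 is controlled mainly through the stability of its protein, so the level of its RNA is not a measure of its activity.

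The sequences just upstream of the start sites show where letters of the antioxidant response element lie. Windows of 250 bases before each RefSeq start (build GRCm38.p6) were read from a table of RefSeq promoters, which held 9 windows for 7 of the 10 genes. The other genes were Gclc, Gsr and Hmox1. The element was searched as TGACNNNGC and as TGAGNNNGC on both strands. TGAGTCA, the site of the AP-1 factors, was searched beside them because it can lie inside the second form. Srxn1, Gclm and Txnrd1 are printed because they held the element, and Nqo1 because its RNA changed most of the 10 genes and its window held none. Capitals mark each match to the element or to TGAGTCA, and each line reads 5′ to 3′ on the strand of the gene.
Srxn1: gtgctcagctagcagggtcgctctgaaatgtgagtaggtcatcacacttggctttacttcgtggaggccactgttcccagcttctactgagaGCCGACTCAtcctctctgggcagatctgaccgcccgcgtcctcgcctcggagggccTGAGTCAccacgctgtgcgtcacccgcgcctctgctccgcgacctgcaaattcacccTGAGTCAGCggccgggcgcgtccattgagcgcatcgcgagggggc
Gclm: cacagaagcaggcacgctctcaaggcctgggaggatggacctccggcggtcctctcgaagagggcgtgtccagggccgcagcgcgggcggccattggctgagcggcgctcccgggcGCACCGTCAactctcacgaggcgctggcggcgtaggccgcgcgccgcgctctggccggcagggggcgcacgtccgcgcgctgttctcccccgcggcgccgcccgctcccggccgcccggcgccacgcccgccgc
Txnrd1: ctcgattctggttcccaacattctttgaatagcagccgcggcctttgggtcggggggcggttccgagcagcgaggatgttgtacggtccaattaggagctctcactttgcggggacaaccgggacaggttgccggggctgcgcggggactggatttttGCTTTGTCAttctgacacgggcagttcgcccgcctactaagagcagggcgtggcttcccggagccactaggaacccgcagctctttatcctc
Nqo1: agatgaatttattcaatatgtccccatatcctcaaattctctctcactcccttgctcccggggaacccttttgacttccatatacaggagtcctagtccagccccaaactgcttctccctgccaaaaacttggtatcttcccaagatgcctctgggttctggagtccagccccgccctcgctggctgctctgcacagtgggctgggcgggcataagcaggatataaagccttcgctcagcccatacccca

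These windows lie at chr2:152105274-152105523 on the plus strand for Srxn1 and chr3:122245307-122245556 on the plus strand for Gclm. They lie at chr10:82858956-82859205 on the plus strand for Txnrd1 (window 2 of its 3) and chr8:107403206-107403455 on the minus strand for Nqo1. Srxn1 held TGAGTCAGC, which contains the AP-1 letters, from 45 bases before the start. It also held GCCGACTCA, the element read on the minus strand, from 158 bases before, and a separate TGAGTCA from 102 bases before. Gclm held GCACCGTCA from 134 bases before the start and Txnrd1 held GCTTTGTCA from 92 bases before, both on the minus strand. A match was also found in 2 genes that are not printed, Nfe2l2 (TGACTCCGC, from 240 bases before) and Slc7a11 (GCTTTCTCA, from 97 bases before). In all, 5 of the 9 windows had a match to the element, 1 in each of 5 genes, beside 23.0% of the 32851 RefSeq windows of the same length. For Txnrd1 only 1 of its 3 windows matched. Singly, 10.2% of those windows held TGACNNNGC, 14.4% TGAGNNNGC and 4.46% TGAGTCA. A match describes letters and not a bound site, and a window without one says nothing about elements farther away.

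Levels below are normalized counts, the deposited log2 values returned to the linear scale, given for replicates 1, 2 and 3 of a day in that order. Values with ± are the mean and SD of the 3 libraries of a day. Changes are log2 differences of (normalized count + 1) with their standard errors (SE). Every adjusted p of a gene is from limma, two-sided, with Benjamini-Hochberg adjustment over all 17338 genes, and a change is called when it is under 0.05. The libraries held 16.4 to 35.1 M reads, most on day 1 (30.8 ± 4.29 M) and fewest on day 5 (17.6 ± 1.51 M), and a member had 373 to 12847 reads in a library.

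The RNA of cell type markers and of sex-linked genes differed between the days. The 6 basal cell markers were detected on each day and did not move together. The mean of Krt5 was 108199, 82486 and 38923 on days 1, 3 and 5. Krt14 (38819.9, 9821.7 and 11899) and Trp63 (3811, 1644 and 2798) were also highest on day 1. Ngfr (359, 1581 and 1990) and Pdpn (3639, 3204 and 4603) were highest on day 5. Krt15 was highest on day 3 (62675, 302633 and 195601) and set the course of the sum of the 6. That sum was 211427 to 227254, 365344 to 423673 and 206472 to 288280. The 5 suprabasal and luminal keratins, such as Krt13 and Krt8, summed to 98640 to 117463 on day 1, 242048 to 280884 on day 3 and 71871 to 101353 on day 5. That peak on day 3 is shared with Nqo1, Gsr, Srxn1 and Keap1 below, and its part in their values was not tested. The 6 multiciliated cell markers rose in sum from 94.3 to 120 on day 1 and 239.8 to 340 on day 3 to 4049 to 5080 on day 5. The 6 secretory cell markers summed to 198 to 1108 on day 1, 20141 to 28917 on day 3 and 449474 to 583293 on day 5. The 10 leukocyte and macrophage markers rose in sum from 262 to 295 on day 1 to 63465 to 81636 on day 5, almost all of it Lyz2, but Ptprc stayed at or under 4.07 and Tyrobp had no read. Y-linked genes were at 3027 to 3253 on day 1 against 300 to 348 on day 3 and 401 to 575 on day 5. Xist moved the other way, from 1548 to 2018 on day 1 to 5416 to 6346 and 6116 to 8698. Any effect of that difference in the balance of Y-linked to Xist RNA cannot be told apart from the change with time. The part of the changing cell makeup was not tested, and in such bulk samples fewer cells of a type and less RNA per cell cannot be told apart.

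Most genes of the table changed between days. Between day 1 and day 3, 8 of the 10 genes were called, 4 higher and 4 lower, where 73% of all tested genes were called (36.1% higher and 37% lower). Between day 3 and day 5, 8 were called, 2 higher and 6 lower, against 67.3% of all genes (34.8% and 32.4%). Between day 1 and day 5, 7 were called, 2 higher and 5 lower, against 74.5% (36.7% and 37.7%). The share of the 10 genes that changed was near that of all genes, and they did not move as 1 block. Their median change was 0.04, -0.54 and -0.32 in these comparisons, beside 0.00, 0.06 and -0.06 for all genes. Of the 10, 4 had their highest mean on day 1 (Nfe2l2, Slc7a11, Txnrd1 and, by less than its spread, Gclc). Another 4 had it on day 3 (Keap1, Gsr, Srxn1 and Nqo1) and 2 on day 5 (Gclm and, by less than its spread, Hmox1), as the plot of levels in each library shows.

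One correction moved the balance of calls for all genes. When each library's trend over transcript length and GC content was taken out (below, the length and GC correction), 2 members were higher and 8 lower on day 5 than on day 3, and 1 was higher and 9 lower than on day 1. The whole table turned the same way, to 4337 higher and 7376 lower against day 3 (from 6040 and 5624) and to 5520 higher and 7525 lower against day 1 (from 6367 and 6542). The median change of all genes became -0.23 in both of these comparisons, and corrected values for day 5 are to be read against it.

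**Figure D1:**
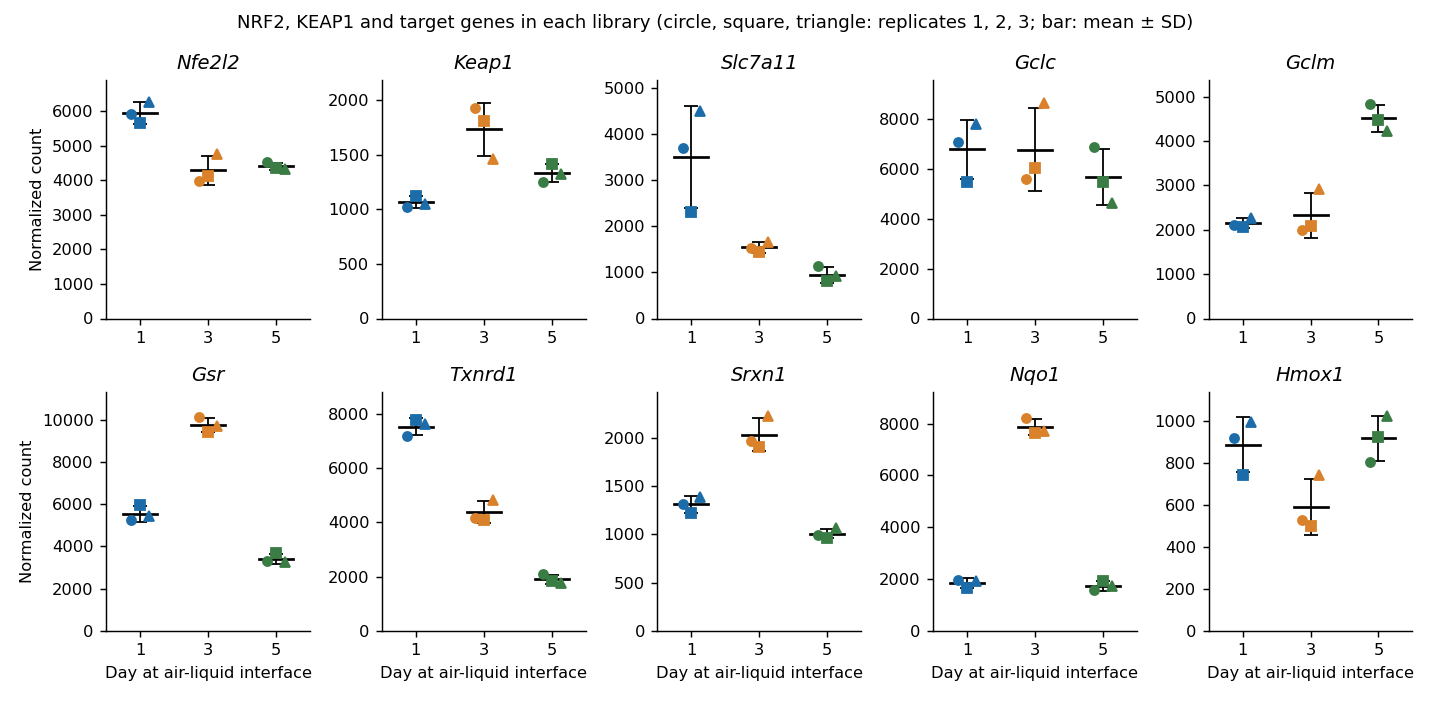
Normalized count (linear axis from 0) of each of the 10 genes in every library by day at the air-liquid interface; circles, squares and triangles are replicates 1, 2 and 3, and bars are the mean ± SD of the 3 libraries of a day. Nqo1 stands at 7636 to 8202 on day 3 and at no more than 1971 on the other days, whereas Txnrd1 steps down from day to day and Gclm is highest on day 5.

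Nfe2l2 (ENSMUSG00000015839), the gene for NRF2 itself, was highest on day 1. Its levels were 5925, 5664 and 6287 on day 1, 3976, 4140 and 4764 on day 3 and 4537, 4360 and 4333 on day 5. All day 1 libraries were above all later ones, and days 3 and 5 overlapped. The fall from day 1 to day 3 was -0.48 (SE 0.093, adjusted p 0.000852), a level 1.39-fold lower. Day 5 was below day 1 by a like amount (-0.43, adjusted p 0.00155), and day 5 against day 3 was not called (0.04, adjusted p 0.697). The fall by day 3 kept its call under each processing alternative. The day 5 comparisons did not: quantile normalization gave -0.05 (adjusted p 0.724) against day 1 and 0.47 (adjusted p 0.00372) against day 3, and the length and GC correction gave -0.32 (adjusted p 0.00362) against day 3.

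Keap1 (ENSMUSG00000003308), the gene for the protein that hands NRF2 over for destruction, moved in the opposite direction over the first step. It stood at 1023, 1127 and 1047 on day 1, 1927, 1813 and 1459 on day 3, and 1248, 1413 and 1328 on day 5. The days did not overlap, although replicate 3 of day 3 lay close to the highest day 5 library. The rise to day 3 was 0.69 (SE 0.113, adjusted p 0.000242; 1.63-fold). The fall after it was -0.37 (adjusted p 0.0133), and day 5 was above day 1 by 0.32 (adjusted p 0.0247).

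The size of these changes in Keap1 depended on the processing. The length and GC correction left 0.25 (adjusted p 0.0514) of the rise and turned day 5 against day 1 to -0.33 (adjusted p 0.0133). The fall was lost without replicate 1 or 2 of day 3 (adjusted p 0.0628 and 0.0527) and with quantile normalization (-0.17, adjusted p 0.156). Day 5 against day 1 was lost without replicate 1 or 3 of day 1 or replicate 2 of day 5 (adjusted p 0.0764, 0.0677 and 0.0886). In the reference annotation, 10.9% of the exonic bases of Keap1 lie under Gm16754 on the other strand, and it is not known here whether counting used strand.

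A ratio taken inside a library does not depend on its size factor, and the ratio of Nfe2l2 to Keap1 was highest on day 1. In normalized counts it was 5.79, 5.03 and 6.01 on day 1, 2.06, 2.28 and 3.26 on day 3 and 3.64, 3.08 and 3.26 on day 5. Day 1 lay above every later library, and days 3 and 5 overlapped. The means were 5.61 ± 0.515, 2.54 ± 0.640 and 3.33 ± 0.282 (SD, n = 3). An exact permutation test over the 1680 assignments of libraries to days gave p = 0.0107, or 0.0214 adjusted over the 3 ratios computed, where the smallest p possible was 0.00357. With days permuted only within a replicate number, the adjusted p of this exact test was 0.0833. The day means spanned 1.17 in log2. After the length and GC correction they spanned 0.76, with day 1 still highest (adjusted p 0.0143 in the exact test over all assignments).

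The ratio of Nfe2l2 to Bach1, activator to competing repressor, was 7.25 ± 0.474, 9.26 ± 0.724 and 7.35 ± 1.69 (SD, n = 3), and the exact test did not tell its days apart (p = 0.164). That result rested on 1 library and on the deposited values. Without replicate 3 of day 5 the adjusted p of the exact test was 0.0250, and after the length and GC correction, where day 1 in place of day 3 had the highest mean, it was 0.0107.

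**Figure D2:**
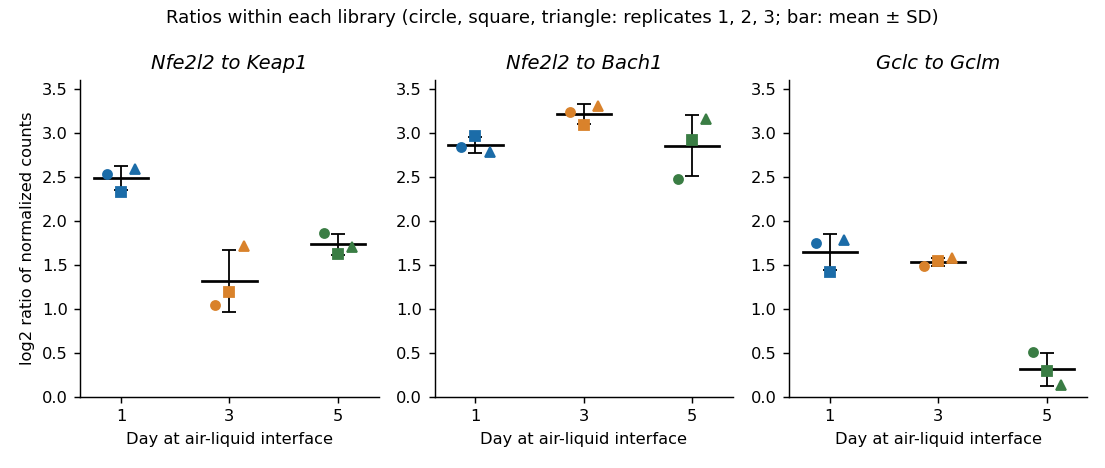
Log2 ratio of normalized counts inside each library, by day, for Nfe2l2 to Keap1, Nfe2l2 to Bach1 and Gclc to Gclm; symbols are replicates 1, 2 and 3 and bars the mean ± SD of 3 libraries. For Nfe2l2 to Keap1 the 3 day 1 libraries lie above all others, and for Gclc to Gclm the 3 day 5 libraries lie below all others.

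Among the proteins that meet NRF2 at its elements, Bach1 was at 832, 728 and 917 on day 1, 422, 489 and 482 on day 3 and 816, 576 and 486 on day 5. Day 3 lay wholly below day 1, and day 5 overlapped both. Its fall to day 3 was -0.83 (SE 0.175, adjusted p 0.00146), but -0.08 (adjusted p 0.547) after the length and GC correction. Its call for day 5 against day 1 (-0.43, adjusted p 0.0463) was lost under most alternatives, among them TMM factors (-0.37, adjusted p 0.0971) and leaving out replicate 3 of day 5 (-0.26, adjusted p 0.175). Mafg, whose protein pairs with NRF2 as do those of Mafk and Maff, was not called in any comparison of days (2027 ± 204, 2075 ± 144 and 2412 ± 262). It was called higher on day 5 than on day 1 with quantile normalization (0.64, adjusted p 0.000671), and without replicate 3 of day 1 or of day 5 (adjusted p 0.0351 and 0.0161). Mafk fell from 1198 ± 30.4 to 853 ± 103 by day 3 (-0.50, adjusted p 0.00104) and stood at 927 ± 34.3 on day 5. Maff went from 603 ± 31.0 through 477 ± 151 to 291 ± 26.0 on day 5 (-1.05 against day 1, adjusted p 0.000453). Of the last 500 exonic bases, 24.8% in Mafg and 33.8% in Mafk overlap another gene, and reads there cannot be assigned to one gene from these counts.

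The 15 partner and degradation genes of NRF2 moved in both directions. From day 1 to day 3, 5 rose and 7 fell, and from day 3 to day 5, 4 rose and 2 fell. From day 1 to day 5, 6 rose and 7 fell, and the medians were -0.29, 0.13 and 0.25. The shares of all tested genes were 36.1% higher and 37% lower, 34.8% and 32.4%, and 36.7% and 37.7% in these comparisons. Scaling moved the second count of the 15 most, to 10 up and 2 down with quantile normalization. It was 2 up and 6 down after the length and GC correction. Nfe2l3, a relative of NRF2, had the largest rise (62.7 ± 20.5, 216 ± 16.8 and 528 ± 84.9 over the 3 days; 3.10 from day 1 to day 5, adjusted p 9.01e-07). A further 2 genes are named after their values were seen, for their place in the destruction of NRF2. Cul3, the scaffold of the ligase that KEAP1 serves, fell from 3258 ± 170 to 1739.7 ± 84.3 by day 3 (-0.90, adjusted p 6.60e-06), which was -0.07 (adjusted p 0.459) after the length and GC correction. Sqstm1, whose protein p62 draws KEAP1 into autophagy, rose from 4684 ± 143 to 7807 ± 443 by day 3 (0.74, adjusted p 5.04e-05) and stood at 9195.5 ± 822 on day 5, the rise being 0.24 (adjusted p 0.0179) after that correction. Of its last 500 exonic bases, 66% lie under Mrnip on the other strand.

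Glutathione synthesis begins with cystine import, and Slc7a11 (ENSMUSG00000027737), the cystine carrier, fell at each step. Its levels were 3696, 2316 and 4488 on day 1, 1523, 1437 and 1665 on day 3 and 1143, 803 and 913 on day 5. The days did not overlap, and day 1 was the most scattered, with replicate 2 well below the others. The change was -1.13 (SE 0.214, adjusted p 0.000693) and then -0.71 (adjusted p 0.0139), and -1.84 (adjusted p 1.86e-05) in all, a level 3.67-fold lower. The whole fall kept its call under each alternative. The first step was 0.11 (adjusted p 0.626) after the length and GC correction, and the second was lost with quantile normalization (-0.57, adjusted p 0.0524) and without replicate 2 of day 5 (-0.59, adjusted p 0.0604). Slc7a11 has the longest transcript of the 10 genes (9.22 kb) and the lowest GC content (40.7%).

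Glutamate-cysteine ligase, which sets the rate of glutathione synthesis, has a catalytic subunit from Gclc and a modifier subunit from Gclm. Gclc (ENSMUSG00000032350) was at 7096, 5473 and 7790 on day 1, 5602, 6052 and 8662 on day 3 and 6891, 5478 and 4642 on day 5. All 3 days overlapped, and no comparison was called (adjusted p 0.957 and 0.289 for the steps and 0.251 overall). By the F test of limma over the 3 days, 9 of the 10 genes were called, against 91.4% of all genes, and Gclc was the exception (adjusted p 0.377). After the length and GC correction Gclc was lower on day 5 than on day 3 (-0.71, adjusted p 0.00336) and than on day 1 (-0.56, adjusted p 0.0103).

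Gclm (ENSMUSG00000028124) was at 2109, 2057 and 2274 on day 1, 1998, 2082 and 2911 on day 3 and 4834, 4474 and 4232 on day 5. Its day 5 libraries stood above all others, and replicate 3 of day 3 stood apart from its fellows. It rose by 0.97 (SE 0.135, adjusted p 0.000129; 1.94-fold) from day 3 to day 5 and by 1.07 (adjusted p 3.41e-05) from day 1 to day 5, with no call for the first step (0.10, adjusted p 0.527). When the rise happened depended on the processing: the length and GC correction put 1.00 (adjusted p 1.87e-05) in the first step and 0.43 (adjusted p 0.00624) in the second. In the annotation 4.71% of the exonic bases of Gclm overlap other genes.

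The RNA levels of the subunits drew together. The ratio of Gclc to Gclm, in normalized counts, was 3.36, 2.66 and 3.43 on day 1, 2.80, 2.91 and 2.98 on day 3 and 1.43, 1.22 and 1.10 on day 5. Every day 5 library was below every earlier one, and days 1 and 3 overlapped. The means were 3.15 ± 0.425, 2.90 ± 0.0868 and 1.25 ± 0.166 (SD, n = 3), with p = 0.0143 in the exact permutation test over days (0.0214 adjusted over the 3 ratios, and 0.0833 within replicate numbers). Replicate 3 of day 3 was the highest of its day in both genes, and its ratio was near those of its fellows. The log2 ratio was 1.65 ± 0.203, 1.53 ± 0.0434 and 0.312 ± 0.190 over the 3 days. After the length and GC correction it was 2.12 ± 0.207, 1.26 ± 0.0726 and 0.117 ± 0.333, with part of the fall already by day 3. The adjusted p of the exact test was then 0.0107.

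Glutathione is kept reduced by glutathione reductase, the product of Gsr (ENSMUSG00000031584). The levels of Gsr were 5236, 5974 and 5422 on day 1, 10119.8, 9431 and 9676 on day 3 and 3281, 3674 and 3276 on day 5. The days formed separate groups, with day 3 on top and day 5 lowest. Gsr rose by 0.81 (SE 0.0910, adjusted p 1.77e-05; 1.76-fold) and then fell by 1.52 in log2 units (adjusted p 4.63e-07; 2.86-fold), ending below day 1 (-0.70, adjusted p 4.18e-05). All of these calls held under each alternative.

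Thioredoxin reductase, from Txnrd1 (ENSMUSG00000020250), does for thioredoxin what glutathione reductase does for glutathione, but its RNA followed another course. It was at 7174, 7791 and 7630 on day 1, 4173, 4096 and 4842 on day 3 and 2092, 1852 and 1778 on day 5. Each day lay wholly below the one before. The changes were -0.79 (SE 0.0990, adjusted p 3.94e-05) and -1.20 (adjusted p 3.95e-06), and -1.98 in all (adjusted p 4.49e-08). The level on day 5 was 3.95-fold below day 1, the largest change between these days of the 10 genes, and all of these calls held under each alternative.

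Srxn1 (ENSMUSG00000032802), whose product sulfiredoxin repairs overoxidized peroxiredoxins, was at 1317, 1221 and 1388 on day 1, 1971, 1901 and 2227 on day 3 and 993, 966 and 1063 on day 5. As with Gsr, day 3 was on top and day 5 lowest, with no overlap. Srxn1 rose by 0.63 (SE 0.0939, adjusted p 0.000125) and fell by 1.01 in log2 units (adjusted p 8.44e-06), calls that held under each alternative. The rise was 0.22 (adjusted p 0.0383) after the length and GC correction. Day 5 against day 1 was -0.38 (adjusted p 0.00395), but -0.11 (adjusted p 0.344) with quantile normalization and -1.04 after the length and GC correction.

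Nqo1 (ENSMUSG00000003849), which encodes a quinone reductase widely used as a readout of NRF2 activity, rose and fell more than any other of the 10. Its levels were 1971, 1641 and 1921 on day 1, 8202, 7636 and 7732 on day 3 and 1561, 1935 and 1730 on day 5. The day 3 libraries were far above both other days, which overlapped each other. The rise was 2.09 (SE 0.105, adjusted p 2.37e-07; 4.26-fold) and the fall after it -2.18 (adjusted p 1.50e-07; 4.51-fold). Day 5 against day 1 was not called (-0.08, adjusted p 0.489). The steps kept their calls under each alternative, at 2.05 and -1.79 with quantile normalization and 2.01 and -2.28 after the length and GC correction. In the latter, day 5 was called below day 1 (-0.27, adjusted p 0.0157), near the median of all genes there.

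Hmox1 (ENSMUSG00000005413), the gene for heme oxygenase, which opens the heme ring and frees its iron, had the reverse pattern. It stood at 919, 744 and 996 on day 1, 527, 499 and 743 on day 3 and 805, 922 and 1021 on day 5. The lowest day 1 library and replicate 3 of day 3 all but met, and days 1 and 5 overlapped. Hmox1 fell by 0.60 in log2 units (SE 0.169, adjusted p 0.00805) and rose again by 0.65 (adjusted p 0.00618), and these calls held under each alternative. Day 5 against day 1 was not called (0.05, adjusted p 0.794), but was -0.42 (adjusted p 0.0263) after the length and GC correction.

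Libraries of the compared days did not overlap in 8, 8 and 7 of the 10 genes (day 1 with 3, 3 with 5, and 1 with 5), and in 77.3%, 71% and 76.8% of all genes. Means differed by at least 2-fold in 2, 4 and 3 of the 10, and the share of all genes with such a difference was not computed. A contrast then asked whether the second step differed from the first, and 7 of the 10 genes were called, against 70.7% of all genes (36.8% upward and 33.9% downward). It was negative for Nqo1 (-4.27, adjusted p 6.86e-07), Gsr (-2.33, adjusted p 4.23e-06), Srxn1 (-1.64, adjusted p 1.99e-05) and Keap1 (-1.07, adjusted p 0.000660). It was positive for Hmox1 (1.25, adjusted p 0.00306), Gclm (0.87, adjusted p 0.00670) and Nfe2l2 (0.52, adjusted p 0.0143). After the length and GC correction Gclm was at -0.57 (adjusted p 0.0264) and Nfe2l2 at 0.19 (adjusted p 0.220), and Nfe2l2 also lost its call without replicate 1 or 2 of day 3 (adjusted p 0.0842 and 0.0664). The steps of Txnrd1 (-0.41, adjusted p 0.0538), Slc7a11 (0.43, adjusted p 0.320) and Gclc (-0.23, adjusted p 0.557) were not told apart. Txnrd1 was called without replicate 1 of day 5 (-0.48, adjusted p 0.0154), and Slc7a11 without replicate 2 of day 1 (0.70, adjusted p 0.0329). Slc7a11 (-1.52, adjusted p 0.00185), Txnrd1 (-0.95, adjusted p 0.000119) and Gclc (-0.85, adjusted p 0.0236) were also called after the length and GC correction.

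**Figure D3:**
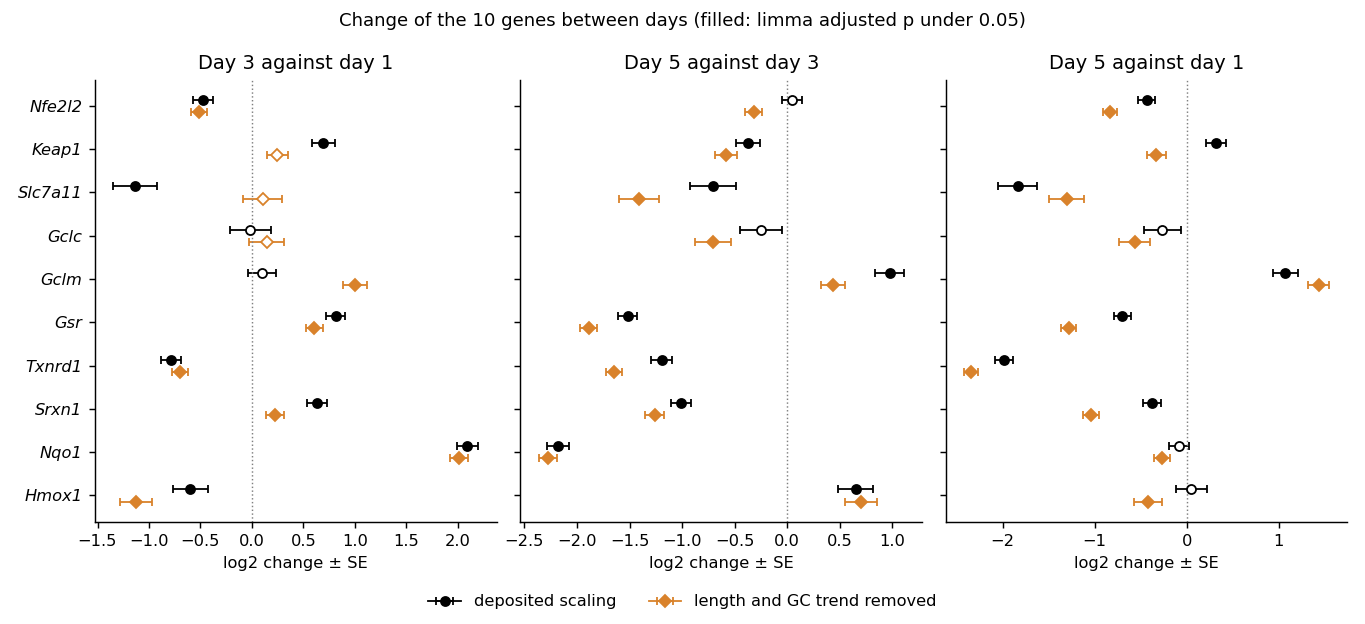
Log2 change ± SE of the 10 genes in the 3 comparisons of days, with the deposited scaling (circles) and with the trend over transcript length and GC content taken out (diamonds); filled symbols have a limma adjusted p under 0.05. Nqo1, Gsr, Txnrd1, Srxn1 and Hmox1 keep their direction and call in both steps. Slc7a11 and Gclc at day 3 against day 1 change side, as do Nfe2l2 at day 5 against day 3 and Keap1 and Hmox1 at day 5 against day 1.

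Per kilobase of transcript, which allows genes to be set beside each other, the order of the 10 genes changed from day to day. On day 1 Nfe2l2 led at 2408 ± 126 normalized counts per kb. Txnrd1, Gsr and Gclc followed at 2079 ± 88.4, 2074 ± 144 and 1982.5 ± 347 per kb, which did not differ beyond their spread. Nqo1 came next (1187 ± 115), then Hmox1 (565 ± 82.4) and Srxn1 (465 ± 29.7), whose libraries overlapped. Gclm (384 ± 20.3) and Keap1 (295 ± 15.0) were lowest along with Slc7a11 (379 ± 119), whose libraries overlapped those of Srxn1, Gclm and Keap1. On day 3 Nqo1 led at 5059 ± 195 per kb, ahead of Gsr at 3645 ± 131. Gclc (1978 ± 483) and Nfe2l2 (1735 ± 168) came next and were within their spread, as were Keap1 (480 ± 67.5), Gclm (417 ± 90.3) and Hmox1 (376 ± 85.0) farther down. On day 5 Nfe2l2 (1782 ± 44.8) and Gclc (1657 ± 332) were within their spread at the top, and Gsr (1276 ± 85.3) and Nqo1 (1122 ± 121) were within theirs below, with the libraries of Gclc reaching down to those of Gsr. Slc7a11 was last on both later days (167 ± 12.5 and 103 ± 18.8). Lengths are those of the longest transcript in GENCODE M21, so the order rests on that choice of isoform.

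Courses over the 9 libraries were compared after each was centred on its own mean on the log2 scale, as a description with no test. Of the 45 pairs of members, Gsr and Srxn1 were the most alike (root mean square difference 0.245) and Slc7a11 and Nqo1 the least (1.35). Among 11612 genes with a mean of at least 100, those nearest to Nfe2l2 were Slc39a11, Dnaja3 and Ints4 (0.0441, 0.0538 and 0.0644). Those nearest to Nqo1 were Alad, an enzyme of heme synthesis, Enpp1 and the tight junction gene Cldn7 (0.183, 0.201 and 0.205). Alad went from 1209 ± 15.6 to 5399.8 ± 709.6 and back to 1332 ± 314. Those nearest to Hmox1 were Lamp1, Hyls1 and Rheb (0.134, 0.152 and 0.155). Of these, Lamp1 shares 35.4% of its last 500 exonic bases, and Hyls1 45.8% of its exonic bases, with other genes.

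Around the 10 genes, 86 others of the pathway and its neighbours were tested, and their counts are given as a description. From day 1 to day 3, 49 rose and 21 fell, from day 3 to day 5, 25 rose and 40 fell, and from day 1 to day 5, 44 rose and 27 fell. These are 57.0% higher and 24.4% lower at the first step, 29.1% and 46.5% at the second and 51.2% and 31.4% from day 1 to day 5, beside 36.1% and 37%, 34.8% and 32.4%, and 36.7% and 37.7% of all tested genes. The medians were 0.75, -0.22 and 0.34, beside 0.00, 0.06 and -0.06 for all genes. At the first step 13 of 15 other NRF2-linked detoxification genes rose and 1 fell (median 1.09), 10 of 14 other glutathione genes rose and 3 fell (median 1.35), and 9 of 13 other thioredoxin and peroxiredoxin genes rose and 1 fell (median 1.09). At the second step these lists split, with 6 up and 6 down, 4 up and 8 down, and 4 up and 6 down, as the plot of the pathway lists shows. Scaling moved these splits, to 6 up and 4 down among the glutathione genes with quantile normalization, and to 2 up and 7 down among the thioredoxin genes after the length and GC correction.

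**Figure D4:**
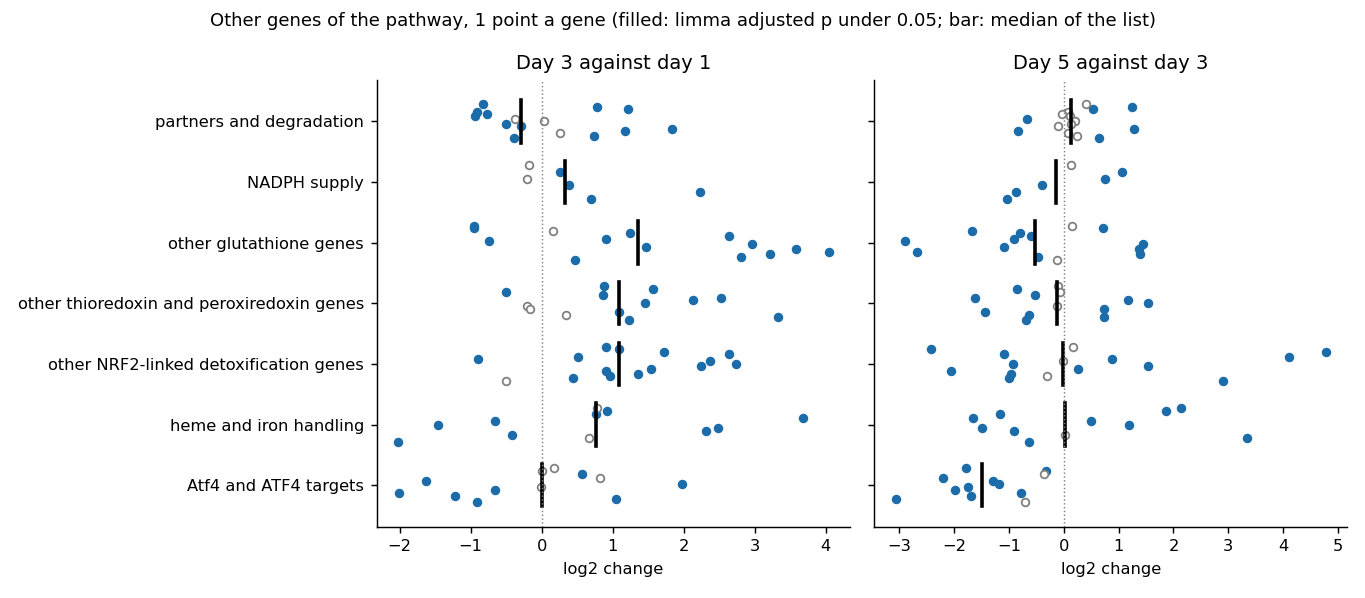
Log2 change of each of the 86 other genes, by list, for day 3 against day 1 and day 5 against day 3; 1 point is a gene, filled where the limma adjusted p is under 0.05, and the bar is the median of the list. The detoxification, glutathione and thioredoxin lists lie mostly to the right at day 3, and the list of Atf4 and its targets lies to the left at day 5, where 10 of 12 fell, Atf4 among them.

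Several genes of these lists, such as Aldh1a1, Gstm1 and Gsta1, moved farther from day 1 to day 5 than any of the 10. Aldh1a1, an aldehyde dehydrogenase that makes retinoic acid, went from 511 ± 194 to 1595 ± 119 and 43709.8 ± 1567 (6.50 from day 1 to day 5, adjusted p 8.68e-09). Akr1b8, an aldo-keto reductase, peaked on day 3 and ended below its start (866 ± 55.1, 1842 ± 74.7 and 348 ± 46.2; -1.32, adjusted p 1.66e-06). The glutathione transferase gene Gstm1 rose from 1153 ± 228 to 35740.1 ± 7092 (4.95, adjusted p 9.35e-09), while Gsta1 fell from 3956 ± 373 to 325 ± 95.9 (-3.64, adjusted p 8.93e-08). Both have close paralogs, between which reads may be split.

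Of the thioredoxin genes, Txnip, which binds and inhibits thioredoxin, rose from 333 ± 163 to 5155 ± 271 (4.05, adjusted p 1.62e-07), with 19.4% of its exonic bases under Gm15441 on the other strand. Prdx3, a mitochondrial peroxiredoxin, fell from 1742 ± 22.5 to 1174 ± 78.3 (-0.57, adjusted p 0.000119). Txn1, the cytosolic thioredoxin on which thioredoxin reductase acts, is named after its values were seen. It went from 8782 ± 217 to 18816 ± 2090.0 on day 3 (1.09, adjusted p 0.000121) and to 7085 ± 1622 on day 5 (-1.43, adjusted p 3.12e-05), whereas Txnrd1 fell at both steps.

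NADPH, on which glutathione reductase, thioredoxin reductase and NQO1 all draw, comes in part from the pentose phosphate pathway. Of 6 genes of its supply, 4 rose from day 1 to day 3 and the others were not called. From day 3 to day 5, 2 rose and 3 fell, and from day 1 to day 5, 3 rose and 1 fell (medians 0.32, -0.13 and 0.27). The shares of all tested genes were 36.1% higher and 37% lower, 34.8% and 32.4%, and 36.7% and 37.7% in these comparisons. With quantile normalization 2 of the 6 rose at the first step and 3 rose and 1 fell at the second. From day 1 to day 5, 5 of the 6 then rose and none fell (median 0.66). After the length and GC correction 3 of the 6 rose and 3 fell from day 1 to day 5 (median 0.03). Taldo1, of that pathway, went from 3619.9 ± 76.2 to 17079.8 ± 1825 and then 9463 ± 1911 (2.23 at day 3, adjusted p 9.02e-07). Tkt, of the same pathway, went from 17397 ± 367 to 28134 ± 128 and 13858 ± 1627 (0.69 at day 3, adjusted p 0.000246, and -0.33 from day 1 to day 5, adjusted p 0.0201). With quantile normalization these values for Tkt were 0.04 (adjusted p 0.737) and -0.22 (adjusted p 0.0727), and the second call was also lost without replicate 3 of day 1 (adjusted p 0.0691).

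Of 11 genes of heme and iron handling beside Hmox1, 5 rose and 4 fell at the first step and 5 rose and 5 fell at the second. From day 1 to day 5, 6 rose and 2 fell. The shares of all tested genes were 36.1% higher and 37% lower, 34.8% and 32.4%, and 36.7% and 37.7% in these comparisons. The iron exporter gene Slc40a1 rose from 22.6 ± 12.5 on day 1 to 339 ± 34.9 on day 5 (4.02, adjusted p 6.03e-06). Tfrc, for the transferrin receptor that takes iron in, fell from 10519 ± 1535 to 1679 ± 294 (-2.65, adjusted p 5.93e-08). Blvrb and Fth1, for a biliverdin reductase and the ferritin heavy chain, are named after their values were seen, and peaked on day 3, when Hmox1 was lowest. Blvrb went from 219.6 ± 35.3 to 2807 ± 309 and 899.8 ± 164 (3.68 at day 3, adjusted p 1.35e-07). Fth1 went from 25574 ± 3835 to 142256 ± 8493 and 51237 ± 10313 (2.49 at day 3, adjusted p 1.84e-06), and its reads may be split with processed copies of the gene.

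ATF4, the factor of the amino acid stress response, also acts on Slc7a11, and its part in the fall of Slc7a11 was not tested. Of 11 of its targets, 3 rose and 5 fell at the first step, where 36.1% of all tested genes rose and 37% fell. At the second step 9 fell with the others not called (median -1.70), beside 34.8% higher and 32.4% lower of all genes. From day 1 to day 5, 1 rose and 9 fell (median -1.76), beside 36.7% and 37.7% of all genes. Atf4 itself, also on the list, went down by less (-0.33 at the second step, adjusted p 0.0218). Slc7a5, an amino acid carrier, went from 5954 ± 491 to 2549.9 ± 37.4 and 790.1 ± 88.4 (-2.91 from day 1 to day 5, adjusted p 6.58e-09) and was called lower at both steps. Ddit3, the stress gene for CHOP, was the 1 target higher on day 5 than on day 1 (the list, Atf4 included, had 2 such genes with quantile normalization). Its levels were 161 ± 21.1, 637 ± 58.5 and 285 ± 62.5 (0.80, adjusted p 0.00150). Of its exonic bases 10.9%, and of its last 500 exonic bases 13.6%, lie under other entries of the annotation. Another entry named Ddit3, on the same strand, is among them.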

How the data were processed

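RNA was sequenced in 9 libraries, 3 on each of days 1, 3 and 5. Per the labels' protocols, a VAHTS kit was used on total RNA. The submitters' processing notes name HISAT2 2.1.0, DESeq2 1.36.0 and GRCm39. The sources used here do not give the counter, the annotation or the strand setting. What the authors deposited is 1 table in which every value is the log2 of a count divided by 1 size factor per library. No column belonged to another sample. The log2 of 0 is undefined, so 297330 such cells were read as 0 counts, and 359 repeated lines were dropped. Values were returned to the linear scale, where 100% were whole multiples of 1 read within 0.01.

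A gene was tested where 3 or more libraries had 10 normalized counts. The test was limma 3.58.1 in R 4.3.3 on log2(value + 1), which understates changes of low genes, with 1 mean per day and a mean-variance trend (6 residual degrees of freedom). The fit was run on simulated counts as a check of the code. Those counts had the same dispersion for all genes and few changed genes, unlike these data, so they do not measure its errors here. GENCODE M21, of another build, gave lengths, GC content (98.3% of tested genes) and overlaps by identifier, so no GRCm39 positions are given. The 3 ratios were tested by exact permutation. Replicate numbers entered no main fit, since nothing in the labels says that they pair cultures. The check in the closing section cannot exclude such pairing.

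The members and gene lists were chosen with earlier results of these data known. The rule for named genes takes all 10 members, Bach1 and the 3 small MAF genes. It adds the largest rise and fall from day 1 to day 5 of each list among called genes with a mean of at least 100, and the 3 nearest courses to Nfe2l2, Nqo1 and Hmox1 at that mean. Cul3, Sqstm1, Txn1, Blvrb and Fth1 were named after their values were seen. Alternatives covered the pseudocount, the filter, 2 scalings, the trend over length and GC, a replicate block, the samples in the fit and leaving out each library; voom weights were added after seeing the data.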

Additional observations from a re-analysis of the deposited data

How the results depend on the processing

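The planned count test was not run, since its tools took only columns deposited as counts or signal and the deposited unit is log2. Whole reads could still be read back. Over all alternatives, voom on the whole reads included, the members' changes kept their side in 665 cases, lost a call in 14, gained one in 9 and turned sign in 22. Members called ranged from 7 to 8 between days 1 and 3, from 7 to 10 between days 3 and 5 and from 5 to 10 between days 1 and 5. The length and GC correction turned the sign at day 3 against day 1 of Slc7a11 (0.11) and Gclc (0.14). It turned, at day 5 against day 3, Nfe2l2 (-0.32), Bach1 (-0.13), Mafg (-0.065), Mafk (-0.062) and Cul3 (-0.53). It also turned Keap1 (-0.33) and Hmox1 (-0.42) from day 1 to day 5, and the change of step of Slc7a11 (-1.52) and Gclm (-0.57). Quantile normalization turned Gclc (0.24) and Prdx3 (0.080) from day 3 to day 5, Gclc (0.15), Nqo1 (0.26) and Txn1 (0.022) from day 1 to day 5, and the change of step of Gclc (0.34) and Txnrd1 (0.0082). TMM factors turned Gclc (0.00107) at day 3.

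Leaving out 1 library in turn changed the sign of some values that were not called. From day 1 to day 3 the ranges were -0.072 to 0.20 for Gclm, -0.21 to 0.11 for Gclc and -0.027 to 0.11 for Mafg. They were -0.010 to 0.12 for Nfe2l2 from day 3 to day 5, -0.070 to 0.14 for Hmox1 from day 1 to day 5 and -0.48 to 0.15 for the change of step of Gclc. The spread of Nfe2l2 to Bach1 between days, in log2, was 0.31 to 0.51, past the threshold at 0.51 (without replicate 3 of day 5), and 0.62 after the length and GC correction. The cause of these turns was not tested.

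With the replicate number as a block, 12206, 10979 and 12437 genes were called against 12665, 11664 and 12909, and members called stayed at 8, 8 and 7. Permuting days only within a number left the spread of Nfe2l2 to Keap1 (1.17) and Gclc to Gclm (1.33) no longer past the threshold (adjusted p 0.0833 for both in the exact permutation test; the smallest raw p possible is 0.0278). Same-numbered libraries of different days correlated at -0.311 to 0.141 in their deviations, and 2 of 9 libraries correlated best with their own number. Depth limits the members little, since each had at least 373 reads in a library.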
